A study of Homo sapiens with 18 samples.

Results

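The genes described here encode keratins, the proteins of desmosomes and tight junctions, their polarity and splicing partners, and 3 connexins. They were chosen by symbol, and all 46 were found among the 20555 genes of the deposited expression table of 18 xenograft tumors. The tumors were grown under the skin of SCID mice from MSTO-211H-sh-YAP1, a line made from the human biphasic mesothelioma line MSTO-211H. It carries a doxycycline-inducible short hairpin RNA against YAP1, the transcription co-activator that works through the TEAD factors and is restrained by the Hippo pathway. The tumors labelled 0h (n = 5, animals 13, 20, 26, 5 and 8) received 5% glucose in drinking water without doxycycline. Those labelled 24h (n = 4, animals 10, 15, 7 and 9), 96h (n = 5, animals 14, 21, 27, 30 and 6) and 216h (n = 4, animals 17, 18, 19 and 28) received 0.5 mg/ml doxycycline in the same 5% glucose. All groups carried the construct in drug-selected cells, and whether these were a pool or 1 clone is not given in the sources used here. No tumor with a hairpin against another target or with glucose alone at the later times was analysed here. The labels give each time group its own cage group, so cage group and time cannot be told apart. The labels give doxycycline up to 216 h, whereas the text of the study describes its last time point as a period without doxycycline after 96 h of treatment, and which of these holds for the 216 h tumors was not settled. SCID mice lack functional T and B cells but keep other host cells.

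Keratins are the intermediate filaments of epithelial cells and assemble only as pairs of a type I and a type II protein. In simple epithelia and in mesothelium the leading pair is KRT8 and KRT18, whereas KRT5, KRT14 and their relatives are typical of stratified epithelium but not confined to it. Filaments are anchored at desmosomes, in which the cadherins DSG2, DSC2 and DSC3 are tied through plakophilins (PKP1 to PKP4), plakoglobin (JUP) and desmoplakin (DSP) to keratin. Tight junctions seal the space between cells with claudins and occludin on a scaffold of ZO proteins, and gap junctions, made of connexins, join the cytoplasm of neighbours. The comparisons ask how this adhesion and filament program differed with time after the hairpin was switched on.

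Promoters were read because the hairpin targets a co-activator of TEAD factors, which often act beside AP-1. The windows of the claudin with the largest fall and of the connexin that rose follow, as the 250 bases before the RefSeq start site (GRCh38.p14), CLDN1 at chr3:190322447-190322696 on the minus strand and GJA1 at chr6:121435396-121435645 on the plus strand, with matches to either motif in capitals.
CLDN1: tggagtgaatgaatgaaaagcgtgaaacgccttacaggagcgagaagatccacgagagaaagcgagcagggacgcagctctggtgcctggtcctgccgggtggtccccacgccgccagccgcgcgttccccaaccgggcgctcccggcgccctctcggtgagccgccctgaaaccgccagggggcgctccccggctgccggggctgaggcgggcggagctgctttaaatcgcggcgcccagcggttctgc
GJA1: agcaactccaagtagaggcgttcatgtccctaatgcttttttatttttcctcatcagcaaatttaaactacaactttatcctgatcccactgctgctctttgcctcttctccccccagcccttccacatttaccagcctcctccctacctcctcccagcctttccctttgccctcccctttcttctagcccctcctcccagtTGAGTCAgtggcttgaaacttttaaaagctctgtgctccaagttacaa
The TEAD motif GGAATG and the AP-1 motif TGANTCA were searched on both strands, in RefSeq windows of 300 bases, 250 before and 50 after each start, and no window of these genes held both. RefSeq windows were found for 26 of the 46 genes (36 windows). GGAATG occurred in 1 of these 36 windows (2.78%), that of KRT8, against 14.0% of all 35116 promoters. That match lies after a KRT8 start that several other annotated KRT8 transcripts do not use. TGANTCA occurred in 3 of 36 (8.33%), those of GJA1, PERP and CLDN4, against 7.71% of all promoters. In GJA1 it begins 48 bases before the start site and is the stretch in capitals above, and CLDN1 held neither motif in its window. These matches describe letters in a window, not binding.

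Levels are FPKM, fragments mapped to a gene divided by its length and by the total of mapped fragments of the tumor. Of the 46 genes, 22 reached 1 FPKM in at least 4 tumors and were tested with limma among 11379 genes in all, on log2(FPKM + 1). Fold changes below are on that scale, which understates the change of low genes, and a gene was called at a Benjamini-Hochberg adjusted p under 0.05. YAP1, the target of the hairpin, was at 7.26 ± 1.96 FPKM (SD, n = 5) at 0 h, 5.81 ± 1.61 (n = 4) at 24 h, 4.77 ± 1.41 (n = 5) at 96 h and 7.18 ± 1.45 (n = 4) at 216 h. None of these differences from 0 h passed a two-sided exact permutation test (p = 0.27, 0.0556 and 0.984). In groups of 4 or 5 tumors a missed threshold does not show that YAP1 was unchanged. The study reports, from quantitative PCR of such xenografts, that YAP1 mRNA was knocked down under doxycycline and remained partly so after its removal. Why the FPKM values differ from that measure was not tested. The 8 mesothelial markers differed in level, with MSLN at 1.99 to 5.16 FPKM, BNC1 at 2.93 to 5.96 and CALB2 at 0 to 4.77. UPK3B was at most 1.39 FPKM, ITLN1 0.702 and LRRN4 0.125. WT1 was below 1 FPKM in every tumor and PDPN was listed at 0 in all 18. The 10 tumors with 5593 to 6491 genes listed at 0 included all 0 h tumors, and the 8 with 4767 to 5179 included all 96 h tumors, so 96 h and 0 h cannot be compared within such a class. The number of fragments per tumor is unknown.

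At 24 h none of the 22 tested genes was called, and at 96 h KRT8, KRT18, PKP2 and CLDN1 were lower than at 0 h. At 216 h KRT8, KRT18, CLDN1, CLDN11, PERP, DSC3 and DSG2 were lower and GJA1 was higher than at 0 h. From 96 h to 216 h GJA1 and KRT17 were higher and CLDN1 and CLDN11 lower. The calls thus fell on the pair of abundant keratins, on both abundant claudins and on parts of the desmosome, while TJP1, PARD3 and PARD6B, the tested members of the tight junction scaffold and of polarity, passed in none of the comparisons.

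The counts were read against all tested genes. For 24 h against 0 h, 0 of 22 were called in either direction, where 0.00879% of all tested genes were called higher and 0.149% lower. An unadjusted limma p under 0.05 was found for 6 of the 22, all of them lower. It was found for 1047 of all 11379 tested genes, both directions together. For 96 h against 0 h, 0 were higher (background 0.316%) and 4, or 18.2%, were lower (background 1.06%). For 216 h against 0 h, 1 of 22 (4.55%) was higher where 19.7% of all genes were, and 7 (31.8%) were lower where 3.6% were. For 216 h against 96 h, 2 (9.09%) were higher (background 10.3%) and 2 (9.09%) lower (background 0.747%). The median log2 fold change of the 22 genes was -0.14, -0.12, -0.11 and -0.032 in these comparisons, and that of all genes was -0.043, 0.019, 0.17 and 0.16. Scaling every tumor to the same median moved the median of all genes at 216 h to -0.051 and the higher share of all calls from 84.6% to 43.4%, so 216 h changes of members against 0 h are also given relative to the median of all genes. When the class of tumors by genes listed at 0 was a covariate, KRT18 was the only member that passed at 96 h against 0 h (log2 fold change -1.35, adjusted p = 0.0130), and no member passed at 216 h against 96 h. In that fit KRT8 stood at -0.59 (adjusted p = 0.194) and CLDN1 at -0.59 (adjusted p = 0.316), near their values without the covariate, whereas PKP2 went from -0.83 to -0.47 (adjusted p = 0.468).

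**Figure D1:**
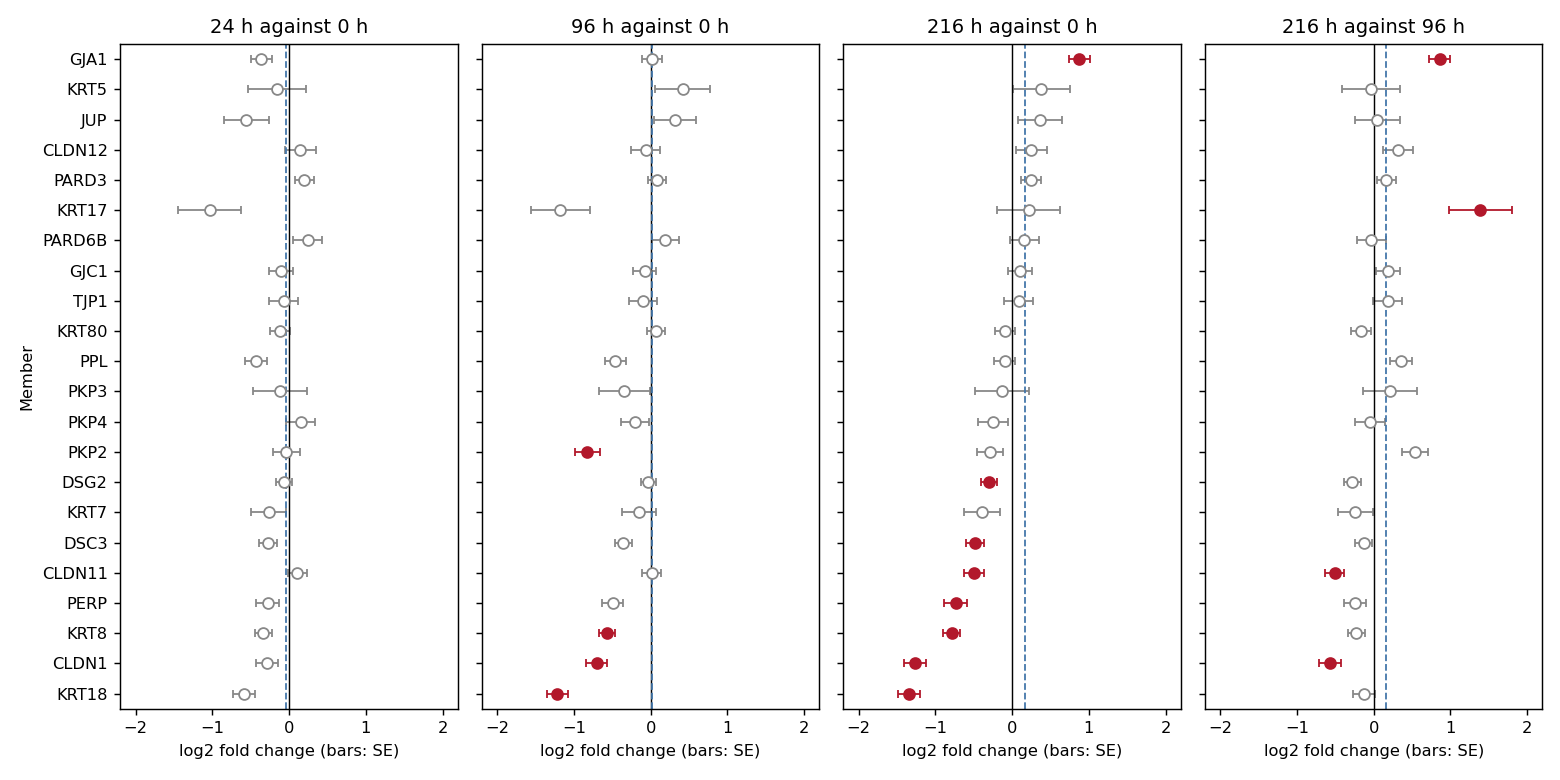
log2 fold change on the log2(FPKM + 1) scale (x axis, bars show the SE) of the 22 tested genes (y axis, ordered by 216 h against 0 h) in the 4 comparisons; filled red points passed an adjusted p of 0.05 and the dashed line is the median of all 11379 tested genes. KRT18, CLDN1 and KRT8 lie farthest to the left at 216 h against 0 h, GJA1 farthest to the right, and no point is filled at 24 h.

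KRT18, the type I keratin of simple epithelia (chr12:52948871-52952901), fell at 96 h and at 216 h. It was at 192, 202, 191, 186 and 183 FPKM in the 0 h tumors, at 110, 105, 132 and 166 at 24 h, at 85.1, 64.7, 92.6, 82.9 and 85.0 at 96 h, and at 64.1, 102, 64.4 and 74.9 at 216 h. Every 24 h, 96 h and 216 h tumor was below every 0 h tumor. The mean decreased by 57.0% at 96 h, a log2 fold change of -1.22 (SE 0.14, adjusted p = 5.76e-05), and decreased by 60.1% at 216 h, a log2 fold change of -1.34 (SE 0.14, adjusted p = 1.12e-05). The difference of -0.59 at 24 h was not called (adjusted p = 0.129).

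KRT8, its type II partner (chr12:52897187-52949920), moved in the same direction by less. Its level was 185, 214, 185, 152 and 183 FPKM at 0 h, 141, 129, 144 and 165 at 24 h, 127, 106, 127, 125 and 132 at 96 h, and 95.2, 131, 96.5 and 102 at 216 h. The 96 h and 216 h tumors did not overlap with the 0 h tumors, and 1 of the 24 h tumors did. The mean decreased by 32.8% at 96 h (log2 fold change -0.56, SE 0.11, adjusted p = 0.00996) and decreased by 42.2% at 216 h (log2 fold change -0.79, SE 0.11, adjusted p = 0.000114). KRT8 at 216 h against 96 h was not called (-0.22, adjusted p = 0.208) but was called lower under each of the 3 scalings tried (-0.38 to -0.43). Relative to the median of all genes, the 216 h changes were -1.51 for KRT18 and -0.96 for KRT8.

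Both keratins were present at nearly equal levels at 0 h, and the balance then differed. The ratio of KRT8 to KRT18 FPKM was 0.961 ± 0.0896 (SD, n = 5) at 0 h, 1.15 ± 0.131 (n = 4) at 24 h, 1.51 ± 0.0962 (n = 5) at 96 h and 1.41 ± 0.0993 (n = 4) at 216 h. This ratio was chosen after the values were seen, and a single scaling factor per tumor cannot alter it, though quantile normalization can. Every 96 h and 216 h tumor had a higher ratio than every 0 h tumor (two-sided exact permutation p = 0.00794 and 0.0159, both 0.0317 when adjusted over 4 comparisons). The ratio at 24 h did not pass after adjustment (exact p = 0.0476, adjusted 0.0635), nor did 216 h against 96 h (exact p = 0.111). Both genes share sequence with processed pseudogenes: 18.9% of the 31-base stretches of KRT8 transcripts and 28.1% of those of KRT18 occur in another annotated gene. Their exons also overlap by 135 bases on opposite strands, and whether the counting used strand is not given in the sources used here.

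**Figure D2:**
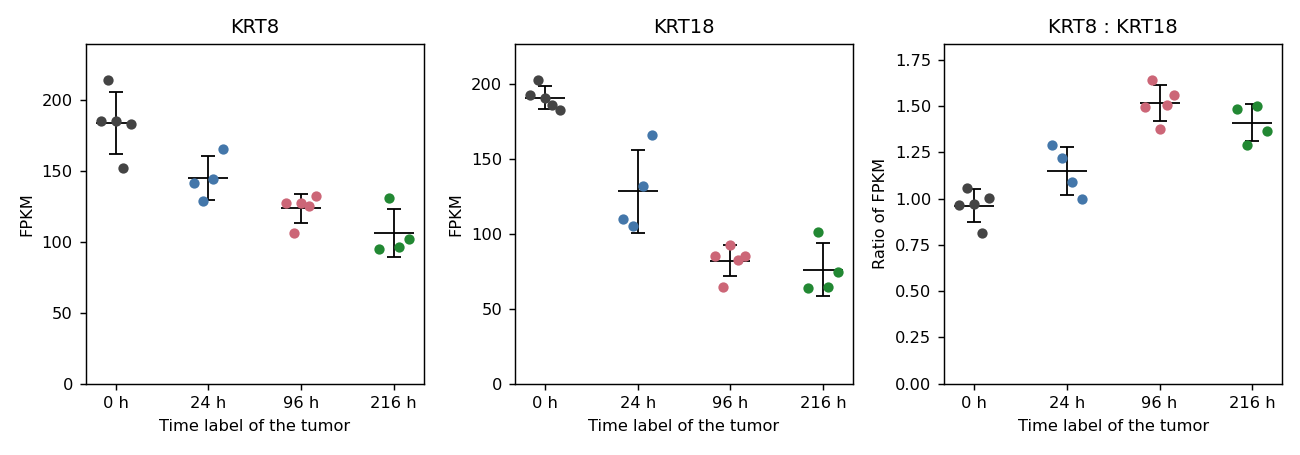
FPKM of KRT8 and KRT18 and their ratio (y axes) in each of the 18 tumors by time label (x axis); points are tumors, the horizontal bar is the group mean and the error bar the SD. KRT18 sits at 183 to 202 FPKM at 0 h and at 64.7 to 92.6 at 96 h, and the ratio rises above all 0 h values at 96 h and 216 h.

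The other simple and stratified keratins were low or variable. KRT8 and KRT18 together made up 68.7% to 89.1% of the summed FPKM of all 55 keratin genes, a sum of 436 ± 43.8 (SD, n = 5) at 0 h, 314 ± 43.4 (n = 4) at 24 h, 257 ± 32.8 (n = 5) at 96 h and 245 ± 33.0 (n = 4) at 216 h. Only 7 of the 55 were tested, of which 2 fell at 96 h and at 216 h and none rose against 0 h. Those 2 are KRT8 and KRT18. Over all tested genes 1.06% were lower at 96 h and 3.6% at 216 h, and 0.316% and 19.7% were higher. KRT7, another type II keratin of simple epithelia, was at 2.24 to 7.61 FPKM and KRT80 at 12.1 to 18.2 FPKM, and neither was called in any comparison.

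KRT17, a keratin of basal and injured epithelium (chr17:41619437-41624842), was higher at 216 h than at 96 h. It was at 42.6, 42.3, 27.7, 12.9 and 15.3 FPKM at 0 h, 9.08, 19.0, 10.2 and 10.8 at 24 h, 12.5, 3.72, 7.94, 18.7 and 17.5 at 96 h, and 39.7, 25.9, 37.2 and 19.3 at 216 h. The 0 h tumors were spread over 12.9 to 42.6 FPKM and overlapped with every other group. All 216 h tumors were above all 96 h tumors, with a log2 fold change of 1.39 (SE 0.41, adjusted p = 0.0344), or 1.23 relative to the median of all genes, and that call was lost under each scaling tried and without 96 h replicate 1, 2 or 3 or 216 h replicate 1, 2 or 3 (adjusted p = 0.0531 to 0.0979). Its differences from 0 h were not called, and 22.5% of its stretches are shared with other genes, KRT17P1 in first place.

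Both tested desmosomal cadherins were lower at 216 h than at 0 h. DSC3 (chr18:30990008-31042741), a desmocollin, was at 3.49, 3.5, 3.24, 2.84 and 3.05 FPKM at 0 h, 2.21, 2.46, 2.04 and 3.38 at 24 h, 2.12, 2.34, 2.2, 2.39 and 2.46 at 96 h, and 2.16, 2.19, 2.16 and 1.59 at 216 h. All 96 h and 216 h tumors were below all 0 h tumors, and the 216 h change passed (log2 fold change -0.49, SE 0.12, adjusted p = 0.00582; -0.66 relative to the median of all genes). DSG2 (chr18:31498043-31549008), the desmoglein of simple epithelia, was at 15.8, 16.5, 18.9, 13.9 and 14.8 FPKM at 0 h, 14.6, 15.8, 14.3 and 15.8 at 24 h, 16.7, 15.4, 15.7, 15.2 and 14.8 at 96 h, and 10.3, 14.9, 13.1 and 12.8 at 216 h. The 0 h and 216 h groups of DSG2 overlapped, and its change (log2 fold change -0.31, SE 0.11, adjusted p = 0.043; -0.48 relative to the median of all genes) was lost when any of 6 single tumors was left out, 0 h replicate 1, 2 or 3 or 216 h replicate 1, 3 or 4 (adjusted p = 0.0644 to 0.154). Under the same 3 scalings DSG2 was also called lower at 216 h against 96 h (-0.43 to -0.51). DSC2, the third cadherin, stayed at 0.106 to 0.474 FPKM and was not tested.

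In the desmosomal plaque, PKP2 was the one member called. PKP2, a plakophilin that gathers desmoplakin at the junction (chr12:32790745-32896840), was at 14.1, 13.5, 10.3, 11.2 and 7.34 FPKM at 0 h, 11.9, 11.4, 9.10 and 10.7 at 24 h, 5.66, 6.69, 5.88, 6.15 and 4.66 at 96 h, and 6.44, 10.7, 11.2 and 7.91 at 216 h. Every 96 h tumor was below every 0 h and every 24 h tumor, whereas the 216 h tumors spread from the 96 h range into the 0 h range. The mean decreased by 48.5% at 96 h (log2 fold change -0.83, SE 0.16, adjusted p = 0.0131) and the difference at 216 h was not called (-0.29, adjusted p = 0.246; -0.46 relative to the median of all genes), but was called lower under median scaling (-0.51, adjusted p = 0.0441). The difference between 216 h and 96 h missed the threshold (0.54, adjusted p = 0.0506) and passed with the filter of 5 FPKM (adjusted p = 0.0427), with only these 2 groups in the fit (0.0499) and without 216 h replicate 1 (0.0218).

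The other plaque genes that were tested passed in no comparison. JUP, which links both desmosomes and adherens junctions to the cell interior, was at 0.927 to 6.19 FPKM, PKP3 at 0.603 to 6.89, PKP4 at 8.20 to 18.7 and PPL, a plakin linker, at 6.12 to 11.7. PPL was called only with a single tumor left out, lower at 96 h against 0 h without 0 h replicate 4 (adjusted p = 0.0370) and higher at 216 h against 96 h without 216 h replicate 2 (adjusted p = 0.0283). DSP, the obligate linker between plaque and keratin, was at 0.0338 to 2.68 FPKM and below 0.5 FPKM in all tumors but 1, PKP1 was at or below 0.164 FPKM in 17 tumors, and EVPL was below 0.1 FPKM in all. PERP, a membrane protein of desmosomes and a p53 target (chr6:138088505-138107511), was at 7.00, 5.49, 6.73, 6.21 and 5.44 FPKM at 0 h, 3.18, 5.21, 4.91 and 6.83 at 24 h, 4.47, 4.06, 3.71, 4.72 and 3.51 at 96 h, and 3.85, 2.98, 3.34 and 3.06 at 216 h. All 96 h and 216 h tumors were below all 0 h tumors, and the change at 216 h passed (log2 fold change -0.74, SE 0.15, adjusted p = 0.00176; -0.91 relative to the median of all genes).

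CLDN1, a sealing claudin (chr3:190305701-190322475), fell from 0 h to 96 h and again from 96 h to 216 h. It was at 13.4, 17.8, 17.3, 17.7 and 16.4 FPKM at 0 h, 10.9, 17.2, 11.6 and 14.4 at 24 h, 9.36, 12.1, 8.34, 11.4 and 8.02 at 96 h, and 5.65, 6.47, 7.01 and 5.85 at 216 h. No 96 h tumor reached the 0 h range, and no 216 h tumor reached the 96 h range. The log2 fold change was -0.70 (SE 0.13, adjusted p = 0.011) at 96 h and -1.27 (SE 0.14, adjusted p = 1.5e-05) at 216 h, where the mean decreased by 62.2%. The 216 h tumors were also below the 96 h tumors (-0.57, SE 0.14, adjusted p = 0.0154). Relative to the median of all genes the 216 h change was -1.44, and no 31-base stretch of CLDN1 is shared with another gene.

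CLDN11, known from myelin and the testis barrier, was by far the most abundant claudin in these tumors. Its row in the table spans chr3:170418865-170860380, and 27.2% of its annotated exonic bases also belong to an overlapping gene on the same strand, AC026316.5. It was at 137, 151, 167, 145 and 159 FPKM at 0 h, 160, 151, 165 and 177 at 24 h, 152, 178, 155, 147 and 136 at 96 h, and 127, 83.6, 89.9 and 138 at 216 h. A pair of 216 h tumors was far below all others and another was just inside the 0 h range. The change was -0.50 against 0 h (SE 0.13, adjusted p = 0.0086) and -0.51 against 96 h (SE 0.13, adjusted p = 0.0149; 0.0513 and 0.0624 without 216 h replicate 2 or 3), and -0.67 against 0 h relative to the median of all genes.

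CLDN11 and CLDN1 made up 86.9% to 96.0% of the summed FPKM of all 24 claudin genes, a sum of 179 ± 13.4 (SD, n = 5) at 0 h, 189 ± 9.38 (n = 4) at 24 h, 174 ± 15.2 (n = 5) at 96 h and 130 ± 28.7 (n = 4) at 216 h. Of the 24 claudins, 6 were tested. At 216 h against 0 h, 3.6% of all tested genes were lower and 19.7% higher, and of the 6 claudins 2 were lower and 1 higher. The higher one, CLDN15, a pore-forming claudin, was at 1.57 to 3.13 FPKM at 0 h and 2.17 to 4.78 at 216 h (log2 fold change 0.56, SE 0.17, adjusted p = 0.0254), and was not called under 9 of 18 alternatives, the 3 scalings among them (0.34 under median scaling). CLDN12 was at 4.13 to 10.1 FPKM and passed in no comparison. The claudins typical of tight epithelia were near 0: CLDN3 was at most 0.292 FPKM, CLDN4 0.0962, CLDN6 0.143 and CLDN7 0.26.

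The remaining tight junction and polarity members that were tested passed in no comparison. TJP1 (ZO-1), the scaffold, was at 4.60 to 9.16 FPKM, and the polarity genes PARD3 and PARD6B were at 1.98 to 3.79 and 0.377 to 1.84 FPKM. The others were too low to be tested. OCLN was at most 0.55 FPKM, MARVELD2 0.775, F11R 1.08, CGN 1.80 and TJP3 0.163, and F11R shares 38.3% of its exonic bases with AL591806.3 on the same strand. CRB3, an apical polarity protein, was listed at 0 in all tumors but 1. In the whole families and complexes, listed with earlier results of these data known, the desmosome list had 10 of 18 genes tested with 3 lower at 216 h, all 3 described above. Over all tested genes 3.6% were lower and 19.7% higher at 216 h against 0 h. In the list of other tight junction genes, 13 were found and 7 tested, and none passed at 216 h against 0 h. In the polarity list 13 of 16 were tested and 1 passed at 216 h, where it was lower, beside 3.6% of all tested genes. It was DLG1 (a scaffold of the lateral membrane), at 129.6 ± 18.6 FPKM (SD, n = 5) at 0 h and 100.2 ± 16.7 (n = 4) at 216 h (log2 fold change -0.37, SE 0.13, adjusted p = 0.0497). Its call was lost under 12 of 19 alternatives.

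GJA1, the connexin Cx43 and the main gap junction protein of mesenchymal and mesothelial cells (chr6:121435692-121449727), was the only member called higher at 216 h against 0 h. It was at 55.0, 55.6, 50.9, 34.3 and 47.8 FPKM at 0 h, 33.4, 41.0, 41.6 and 33.6 at 24 h, 56.7, 42.0, 47.5, 42.6 and 55.6 at 96 h, and 89.5, 98.3, 94.8 and 74.9 at 216 h. The 216 h tumors were all above the other 14, which overlapped among themselves. The mean at 216 h was 1.83 times that at 0 h (log2 fold change 0.87, SE 0.14, adjusted p = 0.000292; 0.70 relative to the median of all genes) and also 1.83 times that at 96 h (0.86, SE 0.14, adjusted p = 0.00122). GJA1 made up 81.8% to 91.4% of the summed FPKM of 23 connexins and pannexins, of which 3 were tested and GJA1 alone passed. Over all tested genes 19.7% were higher at 216 h against 0 h and 10.3% against 96 h.

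Host cells are part of such tumors, and a lower or higher level can come from fewer or more cells of a type or from less or more RNA per cell, which cannot be told apart in bulk samples. The 10 fibroblast markers summed to 1343 to 1928 FPKM at 0 h, 935 to 1724 at 24 h, 1103 to 2215 at 96 h and 3640 to 4342 at 216 h. COL1A1 was the largest part of that sum in every tumor, at 763 to 1210 FPKM at 0 h and 1826 to 1938 at 216 h. Whether host or tumor cells gave these values was not tested. None of the 10 was at 0 in all tumors. All 10 were tested, and 8 rose at 216 h against 0 h, beside 19.7% of all tested genes. This rise runs alongside that of GJA1 and the falls at 216 h, and its part in them was not tested. The 12 leukocyte markers summed to 63.1 to 101 FPKM at 0 h, 63.8 to 133 at 24 h, 80.7 to 104 at 96 h and 145 to 230.2 at 216 h. Of the 8 that were tested, 5 were higher and 1 lower at 216 h against 0 h. Over all tested genes 19.7% were higher and 3.6% lower. No marker of this list was at 0 in every tumor. At 96 h against 0 h none of the 10 fibroblast or 8 tested leukocyte markers was called. Over all tested genes only 0.316% were called higher and 1.06% lower there, so this absence of calls says little. The part of host cells in the falls of KRT8, KRT18, PKP2 and CLDN1 at 96 h was not tested. The sources used here do not say what was done with mouse reads.

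Among 13 adherens junction genes, 11 were tested and 5 rose at 216 h against 0 h, none fell, beside 19.7% of all tested genes that rose. CTNNB1 (beta-catenin) was at 25.0 ± 2.41 FPKM (SD, n = 5) at 0 h and 38.5 ± 2.25 (n = 4) at 216 h (log2 fold change 0.60, SE 0.11, adjusted p = 0.000754). CDH11, the mesenchymal cadherin, was at 24.7 ± 4.14 and 52.5 ± 11.8 FPKM (1.05, SE 0.26, adjusted p = 0.00715). CDH1 (E-cadherin) was at 0.148 to 1.25 FPKM at 0 h and 0.827 to 3.95 at 216 h (1.13, SE 0.32, adjusted p = 0.015). NECTIN1 rose by 0.61 (SE 0.21, adjusted p = 0.0422) and CTNND1, named after its value was seen, was the fifth. NECTIN1 was not called under 14 of 18 alternatives (0.38 under median scaling) and CDH1 under 5 of 18, among them the omission of 216 h replicate 1 or 4 (0.97 and 0.91). CTNNB1 and CDH11 passed under all 19, at 0.38 and 0.83 under median scaling. These rises ran alongside that of the fibroblast markers, whose part in them was not tested. Of 5 tested genes among other intermediate filaments, 1 rose at 216 h, where 19.7% of all tested genes rose. It was LMNA, a nuclear lamin (0.50, SE 0.12, adjusted p = 0.00564), which stood at 0.27 under median scaling (adjusted p = 0.0484). Of 12 epithelial regulators only 2 were tested, the others being too low, and 1 rose at 216 h, where 19.7% of all tested genes rose. It was KLF4, an epithelial transcription factor, from 2.36 ± 0.421 FPKM (n = 5) to 6.23 ± 2.12 (n = 4), a log2 fold change of 1.07 (SE 0.19, adjusted p = 0.000737). KLF4 passed under all 18 alternatives, at 0.84 or more.

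**Figure D3:**
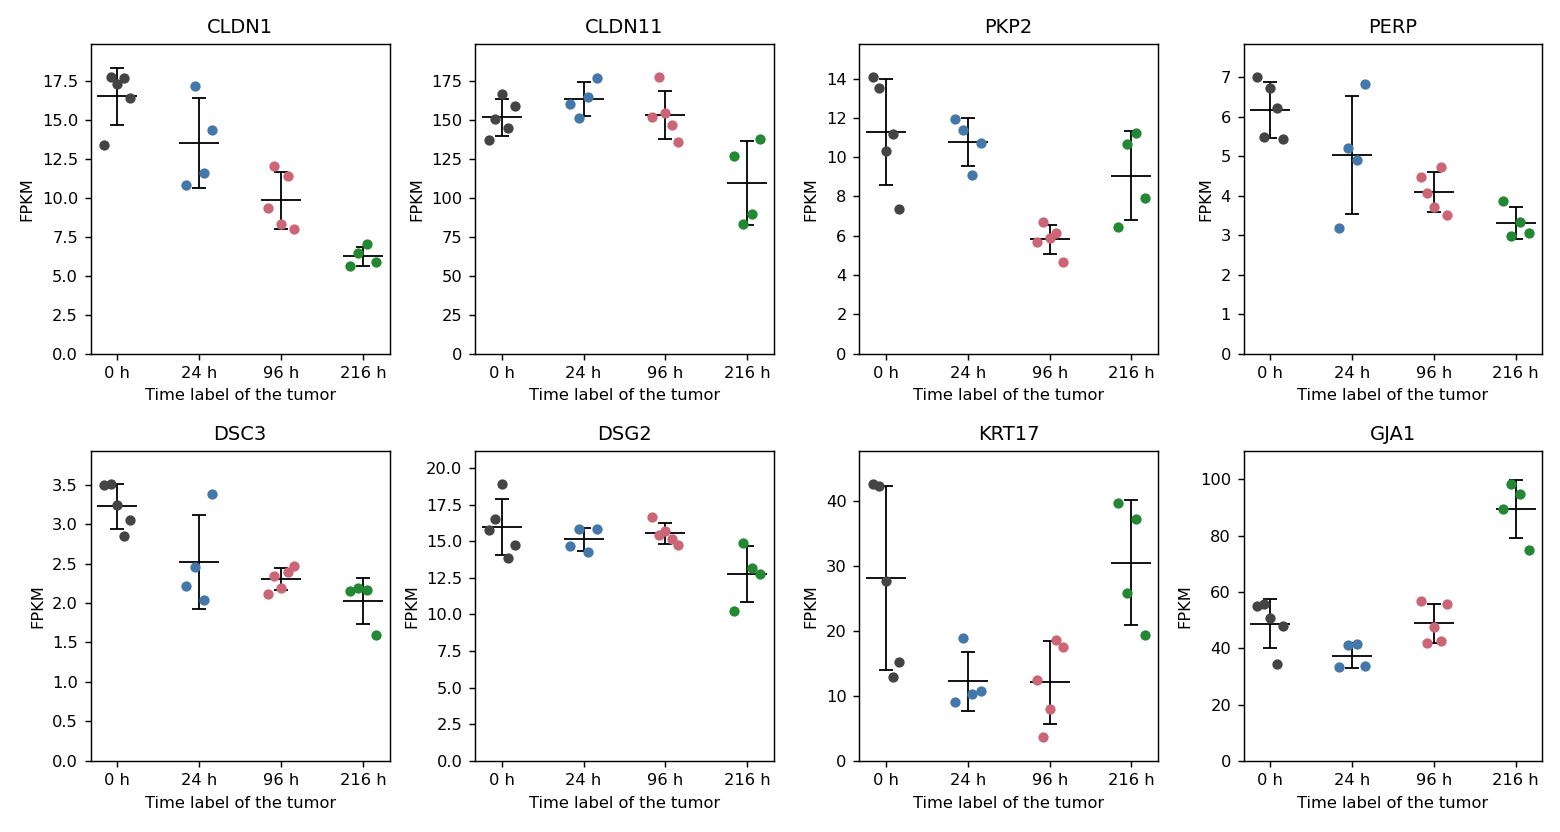
FPKM (y axes, starting at 0) of 8 called genes in each of the 18 tumors by time label (x axis); points are tumors, the horizontal bar is the group mean and the error bar the SD. CLDN1 goes from 13.4 to 17.8 FPKM at 0 h to 5.65 to 7.01 at 216 h, PKP2 is lowest at 96 h, and GJA1 is at 74.9 to 98.3 FPKM at 216 h.

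The study lists some of these genes as effectors of YAP1 and TEAD, a list it took from other public data. Of the positive effectors, KRT8 and CLDN1 were lower at 96 h and 216 h and PKP2 at 96 h, while KRT80 and PKP4 passed in no comparison. Over all tested genes 1.06% were lower at 96 h and 3.6% at 216 h against 0 h. With the covariate for genes listed at 0, or without 96 h replicates 3 and 4, none of these calls at 96 h was kept. Mean YAP1 was 7.26 FPKM at 0 h and 7.18 at 216 h. By quantitative PCR the study still found lower YAP1 mRNA at its last time point, and this difference between the measures was not resolved. The negative ones are by the study's definition those whose RNA runs against YAP1-TEAD activity. Of these, PERP was lower at 216 h, not higher, and CLDN4 and DSC2 were too low to be tested.

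The tumor of animal 30 stood apart in several members, among them keratins of stratified epithelium. In the tumor of animal 30 (96 h replicate 4), 10 of the 46 genes had their highest value of all 18 tumors, KRT5, KRT6A, KRT14, KRT16, KRT19, DSP, JUP, PKP1, EVPL and ESRP2. Of these 10, 8 were too low to be tested, and this tumor had the fewest genes listed at 0 of all 18 (4767). The share of all genes with their highest value in this tumor was not computed, so the count is not a result about these members. KRT5, a basal keratin, was at 6.90 FPKM there and at 0.186 to 1.77 in the other 17. KRT19, a keratin of simple epithelia, was at 5.58 FPKM there, 1.07 in the tumor of animal 27 and at most 0.439 elsewhere. KRT14 was at 4.38 FPKM against at most 0.572 elsewhere, KRT6A at 3.40 against at most 0.80, and DSP at 2.68 against at most 0.49.

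Other keratins of stratified epithelium peaked elsewhere, KRT15 in 216 h replicate 1 and KRT17 in 0 h replicate 1. The 18 skin and hair follicle markers summed to 26.1 FPKM in the tumor of animal 30 and to 6.69 to 12.9 in the other 17. KRT10 made up most of that sum in the others. KRT1, the keratin of the upper epidermis, was at 4.27 FPKM in the tumor of animal 30 and listed at 0 in all others, while KRT2, IVL and CALML5 were listed at 0 in all 18. In the tumor of animal 27 (96 h replicate 3), 4 members had their highest values, KRT7, CLDN3, CRB3 and ESRP1, fewer than the 6 each in 0 h replicates 1 and 2 and the 5 in 216 h replicate 2. ESRP1, an epithelial splicing regulator, was at 3.20 FPKM there and at most 0.648 elsewhere. The 6 adipocyte markers summed to 229.6 FPKM there, almost all of it FABP4, and to 2.85 to 57.2 in the other 17. Whether tissue beside these tumors gave these values was not tested. With both tumors left out, an alternative chosen after seeing the data, the log2 fold changes at 96 h against 0 h were -1.29 for KRT18, -0.59 for KRT8, -0.71 for CLDN1 and -0.86 for PKP2, and only KRT18 kept an adjusted p under 0.05 (0.000748, against 0.0739, 0.0759 and 0.0876).

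**Figure D4:**
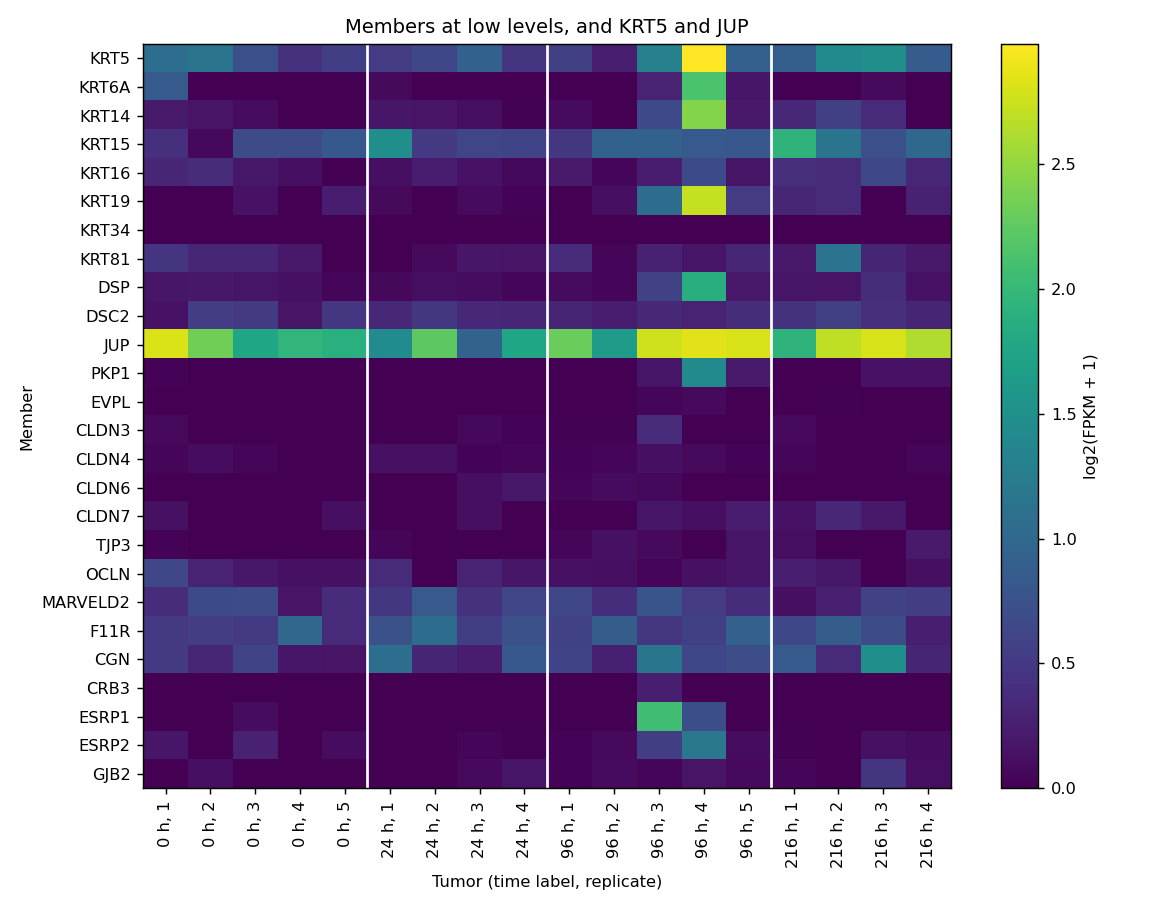
log2(FPKM + 1) as color (scale at the right) for the 24 untested genes and for KRT5 and JUP (y axis) in each of the 18 tumors (x axis, time label and replicate). The tumor 96 h replicate 4 is bright in KRT5, KRT14, KRT19, KRT6A, DSP and PKP1, and 96 h replicate 3 in ESRP1, while most other squares are near 0.

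The 24 untested genes were KRT6A, KRT14, KRT15, KRT16, KRT19, KRT34, KRT81, DSP, DSC2, PKP1, EVPL, CLDN3, CLDN4, CLDN6, CLDN7, TJP3, OCLN, MARVELD2, F11R, CGN, CRB3, ESRP1, ESRP2 and GJB2. KRT34, a hair keratin, was listed at 0 in all 18 tumors. KRT15, of basal cells and the hair follicle, was at 0.0425 to 2.84 FPKM and KRT81, a hair keratin of which 52.4% of stretches are shared with other genes, was at most 1.20. KRT16 was at most 0.597 FPKM, ESRP2 1.28 and the connexin GJB2 0.36, and GJC1, the tested connexin beside GJA1, was at 2.52 to 5.37 FPKM with no call.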

How the data were processed

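RNA from 18 tumors was prepared by the authors with the KAPA RNA HyperPrep and exome capture kits and sequenced in paired-end reads. STAR and GRCh38 are named in the submitters' processing notes, and the quantification tool and annotation are not given in the sources used here. The deposited table gives 1 value per gene and tumor, read as FPKM from its values and from a supplementary table of the study. Its 20555 genes sum to 907662 to 1256546 FPKM per tumor, of which the 13 mitochondrially encoded genes took 74.9% to 84.8%, so they move all other values. No counts were analysed, so depth and counting error are unknown. Gene starts in the table count from 0 and were raised by 1, after which 85.7% equal those of GENCODE 29. Its strand field is the same for all genes and was not used, and 4 empty cells were read as 0.

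A limma model (version 3.58.1 in R 4.3.3, eBayes with trend) took the 4 groups together. It was run on log2(FPKM + 1) of the 11379 genes that reached 1 FPKM in 4 or more tumors, with Benjamini-Hochberg adjustment over all of them, and was tested on simulated data. Single values were compared with two-sided exact permutation tests (scipy 1.17.1). Python 3.11.15 was used with pandas 2.3.3, numpy 2.4.6 and, for figures, matplotlib 3.10.9. Each tumor came from its own mouse, and no 2 columns were identical in 153 pairs. Members and lists were chosen with earlier results of these data known. Members called in any comparison are given with every tumor's value. List genes that are no members were named if called at 216 h against 0 h, at most 4 with the largest change per list. Alternatives changed the scaling, pseudocount (0.1), filter (none, or 5 FPKM), samples, covariates, trend and threshold. One result from the list of other tight junction genes is not reported here.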

Additional observations from a re-analysis of the deposited data

Results flagged for a closer look

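The groups of 4 or 5 tumors were examined for a tumor far from the others with Dixon's criterion in the 22 tested genes, 88 groups in all, of which chance would flag about 4.4. In 5 of them a tumor stood far from the rest. KRT5 was at 6.90 FPKM in the tumor 96 h replicate 4, with the nearest other 96 h tumor at 1.46. KRT7 was at 7.61 FPKM in 96 h replicate 3, with the nearest other at 3.95. KRT17 was at 19.0 FPKM in 24 h replicate 2, with the nearest other at 10.8. DSC3 was at 1.59 FPKM in 216 h replicate 4, with the nearest other at 2.16. PKP3 was at 6.89 FPKM in 0 h replicate 2, with the nearest other at 3.14.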

How the results depend on the processing

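No called change of a member reversed under any alternative: of 159 refits of the 16 called changes, 139 stayed past the threshold and 20 did not, and with 1 tumor left out 134 of 148 did. At 96 h against 0 h the 4 lower members became 1 with a covariate for the class of tumors by genes listed at 0, and 1 with 96 h tumors 3 and 4 left out together (chosen after seeing the data), which leaves fewer tumors. The 7 lower at 216 h against 0 h became 4 when an absolute log2 fold change of at least 0.5 was also asked for. At 216 h against 96 h the 2 higher members became 1 under quantile normalization, median scaling, rescaling without mitochondrially encoded genes, no filter and the omission of both 96 h tumors, and 0 with the covariate. The 2 lower became 4 under these 3 scalings, 0 with the covariate and 0 without both 96 h tumors. The cause was not tested. Leaving out 1 tumor gave 4 to 5 lower at 96 h and 6 to 7 lower at 216 h against 0 h, and 1 to 2 higher and 1 to 2 lower at 216 h against 96 h. KRT17 lost its call without 6 of 9 single tumors, and CLDN11 without 216 h tumor 2 or 3. At 24 h every alternative gave 0. The log2 ratio of KRT8 to KRT18 kept its side at 96 h and 216 h without any tumor (0.60 to 0.69 and 0.50 to 0.60), and at 24 h lost p under 0.05 without 8 of 9 (0.20 to 0.32). No paired analysis was possible because every mouse gave 1 tumor and animal numbers are not shared between groups.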
